A study of Mus musculus with 69 samples.

Results

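The genes described here are the mouse zinc finger genes named Zfp500 to Zfp999. They were taken from the count table by symbol alone (the letters Zfp followed by a number from 500 to 999), which gave 174 of 24411 genes. Of these, 173 had at least 2 counts over all 69 libraries and were tested, among 21175 genes tested in all. Zfp735 had no count in any library.

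The libraries are RNA sequencing of mouse kidney. The mice carried a floxed copy of Uprt (UPRTf/+), which encodes uracil phosphoribosyltransferase, switched on by Hoxb7Cre or by the Cre spelled Atp6b1v1Cre in the labels. Hoxb7Cre is active in the collecting duct and the other line in intercalated cells. Cells with the enzyme build 4-thiouracil (4-TU) into newly made RNA, and the mice received 430 mg/kg of it 4 hours before the kidney was taken. Of the libraries, 48 are pulldowns of the tagged RNA and 21 are whole kidney RNA of control mice of both genotypes. Pulldowns came from untreated controls, from mice 24 hours after 10 minutes of clamping of both renal pedicles (iAKI) and from mice after 72 hours without food and water (vAKI). Control pulldowns numbered 10 for Hoxb7Cre (4 males, 6 females) and 11 for Atp6b1v1Cre (7 males, 4 females), and 5 of these and 5 of the total libraries were of mice of 3 months. All other mice, and all injured ones, were 5.5 months old. Injury was compared in males of 5.5 months, with 4 control, 4 iAKI and 3 vAKI libraries in Hoxb7Cre and 4, 3 and 4 in Atp6b1v1Cre. All mice, controls too, carried Uprt and a Cre. The labels do not say whether a control pulldown and a total library came from 1 mouse, and the tests treat them as separate. For each driver, sex and age the labels hold as many control pulldowns as total libraries, so they could be pairs. If they are, the tests of labelled against total RNA and of the sexes in controls ignore this pairing. Their p-values then take libraries of 1 mouse as independent.

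Most Zfp genes encode C2H2 zinc finger proteins, in which each finger is a short fold held together by a zinc ion that contacts a few bases of DNA. Many of these proteins also carry a KRAB box, which recruits the corepressor Trim28 (KAP1) and with it the histone methyltransferase Setdb1, and silences genes and transposable elements. The genes arose by repeated duplication and often lie in clusters, and their mRNAs are commonly short-lived, although no decay rate was measured in these data. In the longest protein coding model of each gene (GENCODE M21, GRCm38), 100 members held a match to the KRAB box, 70 held none and 4 had no such model (Zfp572, Zfp607, Zfp783 and Zfp939). Among the 169 tested members with a model, the median number of C2H2 fingers was 10 and ranged from 0 to 33, with medians of 12 in the KRAB group and 7 in the rest.

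Thiouracil enters RNA where uracil would stand, and the study names this as a possible bias of the method, so the thymine content of the transcript models is given with the results. It had a median of 26.5% in members with a KRAB box and 21.9% in those without, against 24.2% over 17790 genes. The coding stretches of 6 members from both ends of the comparison of labelled with total RNA are shown from the start of their leading finger, 5′ to 3′ and with every thymine in capitals, so that the base counted can be seen. Zfp711 (chromosome X, 112600526 to 112635070, no KRAB), Zfp948 (chromosome 17, 21567008 to 21588699, KRAB) and Zfp760 (chromosome 17, 21707741 to 21725636, KRAB) were higher in labelled RNA. Zfp524 (chromosome 7, 5014415 to 5018488), Zfp706 (chromosome 15, 36997027 to 37007773) and Zfp771 (chromosome 7, 127244274 to 127254803), all without KRAB, were lower. Positions are those of GRCm38, and the stretches cover coding bases 1285 to 1452, 646 to 813, 628 to 795, 331 to 498, 121 to 228 and 193 to 360 in this order.
Zfp711: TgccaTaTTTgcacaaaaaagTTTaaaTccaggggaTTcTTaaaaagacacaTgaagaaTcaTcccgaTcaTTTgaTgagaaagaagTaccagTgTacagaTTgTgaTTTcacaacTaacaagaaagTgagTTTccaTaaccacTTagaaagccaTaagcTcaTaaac
Zfp948: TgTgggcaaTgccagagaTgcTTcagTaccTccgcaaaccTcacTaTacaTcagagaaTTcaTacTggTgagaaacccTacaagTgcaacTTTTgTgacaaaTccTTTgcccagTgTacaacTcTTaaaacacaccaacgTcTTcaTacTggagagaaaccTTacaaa
Zfp760: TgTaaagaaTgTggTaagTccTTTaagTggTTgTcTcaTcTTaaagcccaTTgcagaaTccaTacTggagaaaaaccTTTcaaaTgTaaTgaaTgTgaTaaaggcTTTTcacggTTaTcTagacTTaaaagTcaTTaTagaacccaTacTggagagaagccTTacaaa
Zfp524: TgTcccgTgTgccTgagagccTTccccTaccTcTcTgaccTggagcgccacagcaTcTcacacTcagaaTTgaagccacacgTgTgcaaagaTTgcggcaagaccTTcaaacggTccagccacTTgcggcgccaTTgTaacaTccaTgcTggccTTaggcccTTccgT
Zfp706: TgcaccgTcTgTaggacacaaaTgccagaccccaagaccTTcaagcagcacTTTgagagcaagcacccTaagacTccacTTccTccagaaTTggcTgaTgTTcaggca
Zfp771: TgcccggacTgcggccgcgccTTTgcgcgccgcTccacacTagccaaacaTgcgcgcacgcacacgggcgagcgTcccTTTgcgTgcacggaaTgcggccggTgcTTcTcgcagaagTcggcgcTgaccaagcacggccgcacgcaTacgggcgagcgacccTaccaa

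The stretches of Zfp760, Zfp711 and Zfp948 were 29.2%, 24.4% and 23.8% thymine, and those of Zfp524, Zfp706 and Zfp771 22%, 19.4% and 13.1%. The whole transcript models held 28.4%, 28.3% and 23.9%, and 19.8%, 31.6% and 13.8%. Zfp706 thus had the most thymine of the 6 over its transcript and was lower in labelled RNA.

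A second set of sequences is shown because 6 of the 8 members that share it were lower after vAKI in Hoxb7 males. This is at an adjusted p under 0.05, and in Hoxb7 females none of the 8 passed the test. In the 250 bases before the RefSeq start site, available for 144 members, Zfp932 and 7 other members (Zfp808, Zfp931, Zfp935, Zfp936, Zfp937, Zfp950 and Zfp958) shared a block of 130 to 145 bases. The block of each of those 7 had 100 to 112 bases identical to Zfp932. These 8 genes lie on 6 chromosomes and all hold a KRAB box match. The blocks of 6 of them, read 5′ to 3′ on the gene's strand with bases identical to Zfp932 in capitals, were at chr5:109996341-109996485, chr19:61140842-61140985, chr13:62466857-62467001, chr2:178078503-178078632, chr2:150217926-150218069 and chr8:4612991-4613135 (GRCm38.p6) in the order shown. The genes on the minus strand were Zfp950, Zfp935 and Zfp931.
Zfp932: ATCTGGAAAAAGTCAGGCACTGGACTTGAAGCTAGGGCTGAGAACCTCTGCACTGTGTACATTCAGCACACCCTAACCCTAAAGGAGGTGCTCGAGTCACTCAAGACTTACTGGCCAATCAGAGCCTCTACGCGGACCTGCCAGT
Zfp950: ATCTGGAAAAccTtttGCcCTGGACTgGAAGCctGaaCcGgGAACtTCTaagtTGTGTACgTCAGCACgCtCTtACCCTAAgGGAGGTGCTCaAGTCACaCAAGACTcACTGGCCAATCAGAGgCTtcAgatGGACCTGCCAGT
Zfp935: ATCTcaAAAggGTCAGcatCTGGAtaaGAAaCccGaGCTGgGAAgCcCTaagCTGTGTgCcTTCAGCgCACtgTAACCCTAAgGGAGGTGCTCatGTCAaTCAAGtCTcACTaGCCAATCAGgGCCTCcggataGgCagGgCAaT
Zfp931: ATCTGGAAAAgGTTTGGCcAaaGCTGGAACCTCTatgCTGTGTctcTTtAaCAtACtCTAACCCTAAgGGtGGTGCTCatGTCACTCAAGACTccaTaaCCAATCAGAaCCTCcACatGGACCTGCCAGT
Zfp937: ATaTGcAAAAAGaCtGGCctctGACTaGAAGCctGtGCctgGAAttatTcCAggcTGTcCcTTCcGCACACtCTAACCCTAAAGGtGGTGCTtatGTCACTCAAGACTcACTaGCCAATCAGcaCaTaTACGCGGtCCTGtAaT
Zfp958: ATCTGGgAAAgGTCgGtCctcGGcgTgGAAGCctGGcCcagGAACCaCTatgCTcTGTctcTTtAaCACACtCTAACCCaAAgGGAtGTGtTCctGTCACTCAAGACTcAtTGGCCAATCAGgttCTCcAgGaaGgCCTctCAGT

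The letters CCAAT, on either strand, stood in the upstream window of each of these 8 members. They lie within the shared block itself, so their presence in all 8 follows from how the 8 were chosen. Of the 91 windows of KRAB members 59.3% held these letters, as did 33.3% of the 51 windows of members without KRAB and 34.5% of the 27025 windows in the table. This is a description of letters and not of a bound site.

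Total counts per library ranged from 12618062 to 30305464, with a median of 20868430. No library was a copy of another, with correlations of log2 normalised levels (CPM, counts scaled to library size) between 0.925 and 0.9941. The marker genes of the labelled cells were present. The summed level of the principal cell genes Aqp2, Aqp3, Aqp4 and Scnn1g had a median of 2060 CPM in Hoxb7 control pulldowns, 669 in Atp6b1v1 and 754 in total RNA, and that of 5 intercalated cell genes 627, 879 and 302. Proximal tubule genes were lower in the pulldowns (1610 and 1540 CPM, 4 genes) than in total RNA (9600 CPM). Pulldown and total RNA differ both in labelling and in the cells they come from, and these cannot be told apart. Likewise, fewer cells of a type and less RNA per cell cannot be told apart in any comparison.

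Whether zinc finger mRNAs took a larger part of newly labelled RNA than of total RNA was examined in the 42 control libraries. All members together held 0.259 to 0.352% of the counts of the 21 total libraries, 0.536 to 0.720% of those of the 10 Hoxb7 pulldowns and 0.537 to 0.715% of those of the 11 Atp6b1v1 pulldowns, so that every pulldown was above every total library. In Hoxb7 pulldowns 55 of 173 members were called higher than in total RNA (edgeR's quasi-likelihood test, called at an adjusted p under 0.05 with a log2 change of 1 or more in either direction), where 14.6% of all genes were called higher. Another 4 members were called lower, where 17.9% of all genes were. The median log2 fold change was 0.75 for the members and 0.11 over all genes tested, and 146 members lay above 0. In Atp6b1v1 pulldowns 36 members were called higher and 4 lower (11.3% and 16.4% of all genes), with a median of 0.68. The comparisons share their total libraries and are not independent of each other.

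The counts differed between members with and without a KRAB box, which was not tested. In Hoxb7, 38 of 99 KRAB members were called higher and 0 lower (86 higher and 1 lower at an adjusted p under 0.05 of any size, where 35.6% and 31.1% of all genes were), whereas 16 of 70 members without KRAB were called higher and 4 lower. In Atp6b1v1 the counts were 22 higher and 0 lower with KRAB (83 and 1 by adjusted p alone, where 34.4% and 29.4% of all genes were), and 13 higher and 4 lower without. Other zinc finger families gave similar medians. Of 162 genes from Zfp1 to Zfp499, 41 were called higher and 2 lower in Hoxb7, with a median of 0.75, as were 10 and 0 of 40 Zbtb genes (0.77), 6 and 0 of 22 Zkscan and Zscan genes (0.72) and 6 and 1 of 17 Klf genes (0.84). Among 12 genes that encode partners of KRAB proteins, 5 were called higher and 0 lower (median 0.87), including Setdb1 at 1.04, Atf7ip at 1.26 and Cbx5 (HP1 alpha) at 1.20, while Trim28 was at 0.25. Ribosomal protein genes, whose mRNAs are commonly long-lived, moved the other way, and the part of decay, transcript length or thymine content in this was not tested. Of 80, 0 were called higher and 76 lower, with a median of −3.07.

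Zfp711, a regulator linked to X-linked intellectual disability, had the highest log2 fold change of the members in Hoxb7. It ranged from 2.66 to 7.95 CPM in total RNA (median 4.94), from 14.5 to 26.0 in Hoxb7 pulldowns (median 20.8) and from 12.4 to 21.7 in Atp6b1v1 pulldowns (median 15.7). Neither pulldown overlapped total RNA. The log2 fold changes were 1.97 ± 0.09 (SE, adjusted p = 3.71e-23) in Hoxb7 and 1.73 ± 0.09 (adjusted p = 3.06e-21) in Atp6b1v1. Zfp871, a KRAB gene with the highest mean CPM of the members, ranged from 194 to 334 CPM in total RNA (median 248) and from 490 to 857 in Hoxb7 pulldowns (median 605), again with no overlap, and had a log2 fold change of 1.34 ± 0.08 (adjusted p = 1.16e-19).

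Other KRAB genes had differences of like size. Zfp760 lay between 6.54 and 16.7 CPM in total RNA and between 20.0 and 37.3 in Hoxb7 pulldowns, a log2 fold change of 1.41 ± 0.10 (adjusted p = 1.52e-16). Its neighbour Zfp948 had a log2 fold change of 1.48 ± 0.16, but its libraries overlapped, from 11.4 to 25.8 CPM in total RNA and from 23.1 to 87.0 in Hoxb7 pulldowns. Zfp619, with 33 fingers the most of any tested member with a model, was higher by 1.39 ± 0.11, Zfp738 by 1.39 ± 0.08 and Zfp626 by 1.35 ± 0.08. Members with known partners were called as well. Zfp609, which binds the cohesin loader NIPBL, had mean levels of 152, 150 and 65 CPM in Hoxb7, Atp6b1v1 and total libraries, and Zfp644, a partner of the G9a methyltransferase, of 97.5 CPM in Hoxb7 and 42 in total libraries.

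The members called lower in labelled RNA were the same 4 in both pulldowns, which share their total libraries. These were Zfp524, Zfp692, Zfp706 and Zfp771, and none of them holds a KRAB box match. Zfp706, a small protein with 1 finger, ranged from 277 to 548 CPM in total RNA (median 425), from 120 to 185 in Hoxb7 pulldowns and from 155 to 223 in Atp6b1v1 pulldowns. Neither pulldown overlapped total RNA, and the log2 fold changes were −1.31 ± 0.06 (adjusted p = 1.35e-22) and −1.10 ± 0.06 (adjusted p = 1.09e-20). Within total RNA Zfp706 also split by sex, with 10 females at 277 to 321 CPM and 11 males at 425 to 548. Zfp771 lay between 8.44 and 54.7 CPM in total RNA and between 2.01 and 9.13 in Hoxb7 pulldowns, with a log2 fold change of −1.53 ± 0.22 (adjusted p = 5.08e-08). These ranges overlapped, and the 2 highest total libraries, at 43.3 and 54.7 CPM, were of 3-month males. Zfp524 had means of 3.98 CPM in Hoxb7 and 8.99 in total RNA (−1.11 ± 0.11), and Zfp692 means of 7.36 and 15.3 (−1.05 ± 0.12). By an adjusted p under 0.05 of any size, 16 members were lower in Hoxb7, where 31.1% of all genes were. Among the 16 was Zfp593, a factor of 60S ribosome assembly.

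**Figure D1:**
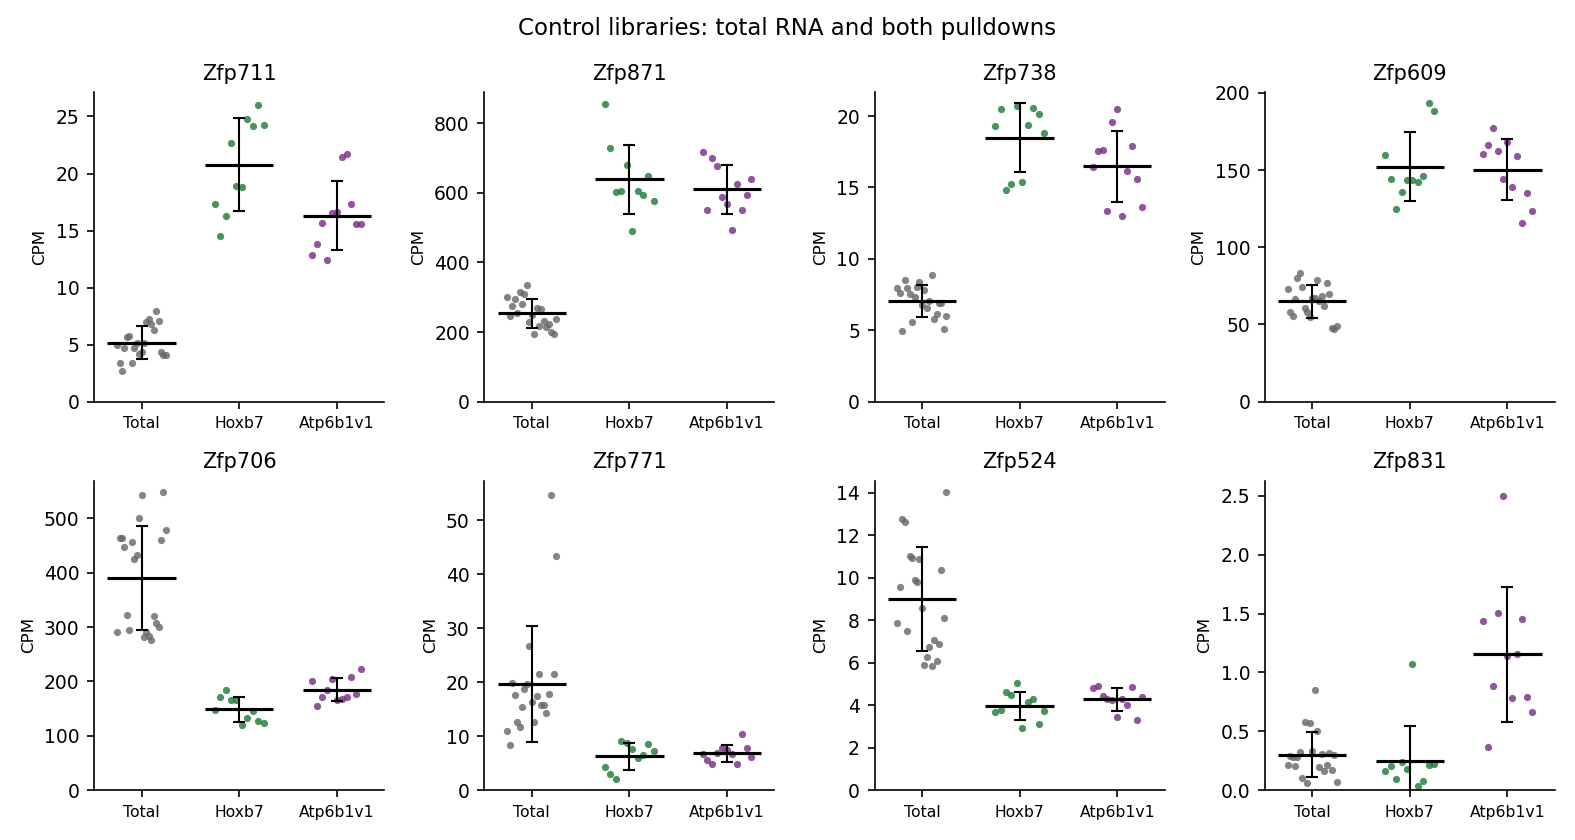
Normalised level (CPM, linear axes from 0) of selected members in each of the 42 control libraries, grouped as total RNA, Hoxb7 pulldown and Atp6b1v1 pulldown, with a point for each library, a line for the group's mean and a bar of 1 SD. Zfp711 and Zfp871 were higher in every pulldown than in any total library, and Zfp706 was lower in every one.

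Length-scaled levels order the members differently from CPM. Per kilobase of transcript, Zfp740 was highest in Hoxb7 control pulldowns at 185 CPM/kb (118 in total RNA), followed by Zfp871 at 58.9 and Zfp869 at 53.0. Zfp706 at 33.6, Zfp664 at 31.6 and Zfp503, a corepressor of the NLZ family, at 27.8 came next. Unlike most members, Zfp503 had means of 117, 119 and 118 CPM in Hoxb7, Atp6b1v1 and total libraries. The median member was at 5.45 CPM/kb in Hoxb7. At the other end, Zfp616, Zfp663 and Zfp936 had at most 3 counts in every control library.

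The size of the difference between labelled and total RNA went with the thymine content of the transcript. When all genes with a model were cut into 5 groups of equal size by thymine content, the members' median log2 fold changes in Hoxb7 were −0.04, 0.58, 0.75, 0.78 and 1.12 from the lowest group (9.73 to 21.2%) to the highest (27.5 to 38.8%). Genes other than the members had −0.27, −0.10, 0.10, 0.22 and 0.37 in the same groups, and the members' medians were above these in all 5. In Atp6b1v1 the members had −0.13, 0.62, 0.71, 0.75 and 1.02 and the other genes −0.26, −0.10, 0.14, 0.28 and 0.45. Over all thymine contents the median in Hoxb7 was 0.84 with KRAB and 0.47 without. Within the 5 groups, from the lowest thymine content up, KRAB members had medians of −0.05, 0.72, 0.70, 0.79 and 1.10 and members without KRAB −0.02, 0.49, 0.76, 0.46 and 1.31, so that neither kind was the higher throughout. The groups hold as few as 5 members of a kind. Across the 169 members, Spearman's correlation of the log2 fold change in Hoxb7 with thymine content was 0.54, with transcript length 0.46, with the number of ATTTA pentamers in the 3′ UTR 0.46 and with the number of fingers 0.36. Over 17794 genes the values were 0.21, 0.38, 0.27 and 0.14. These are correlations across genes of the same libraries, and the separate parts of these features were not tested. Zfp706 went against the trend, with 31.6% thymine and a lower level in labelled RNA.

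**Figure D2:**
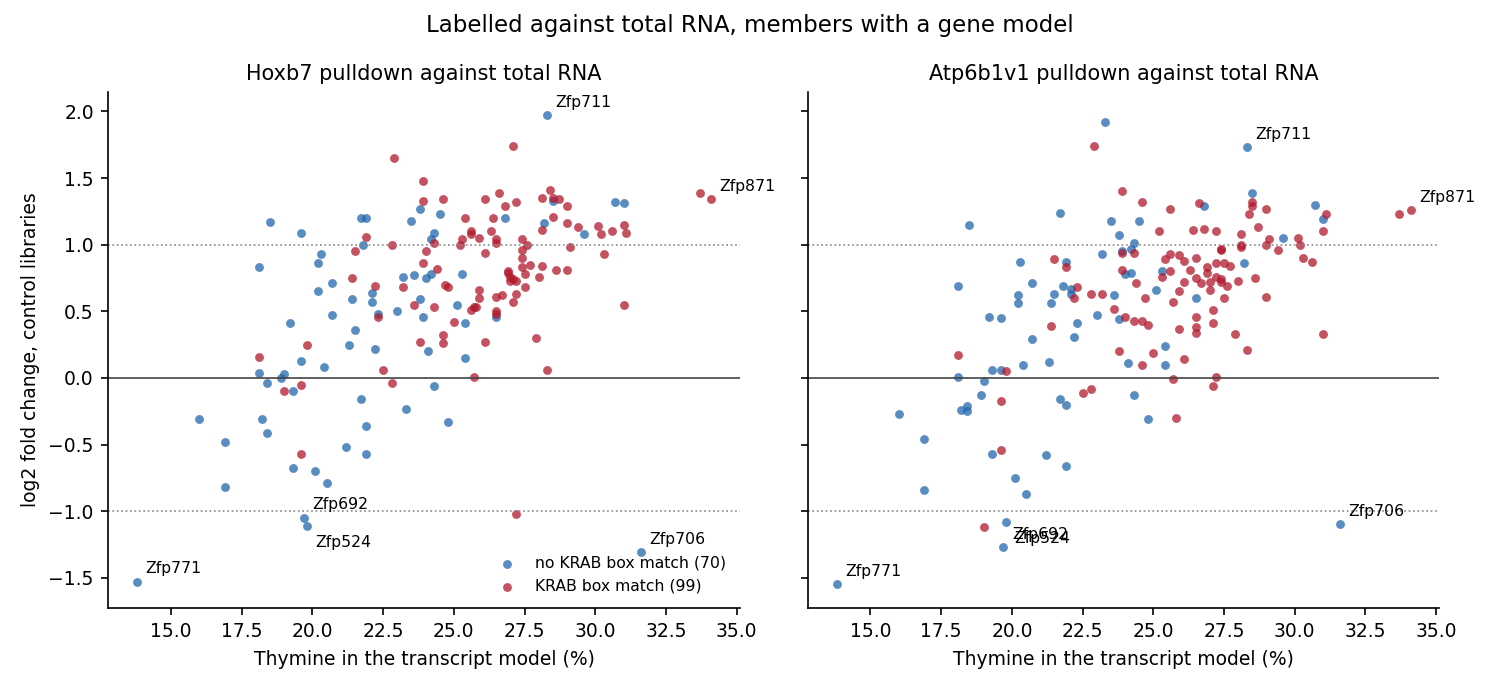
Log2 fold change of labelled against total RNA (vertical axis) against the thymine content of the transcript model (%, horizontal axis) for the members with a gene model, in Hoxb7 and Atp6b1v1 pulldowns, with members with and without a KRAB box marked. Members of high thymine content lie higher, and Zfp706 at 31.6% lies below 0 in both.

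Between the drivers 1 member was called higher in Atp6b1v1 than in Hoxb7 control pulldowns and 0 lower, where 2.58% and 1.53% of all genes were called. This was Zfp831, a C2H2 gene with 2 fingers. It ranged from 0.370 to 2.5 CPM in Atp6b1v1 pulldowns (median 1.14), from 0.0391 to 1.07 in Hoxb7 pulldowns (median 0.193) and from 0.0595 to 0.851 in total RNA (median 0.282). The groups overlapped, through 1 Hoxb7 library at 1.07 CPM, and the log2 fold change was 2.16 ± 0.39 (adjusted p = 6.64e-05). In the same comparison 2 of 3 lymphocyte genes and 2 of 4 macrophage genes were called higher and 0 lower. Of 5 intercalated cell genes 0 were called, and of 4 principal cell genes 3 were called lower. The part of these cells in the level of Zfp831 was not tested. Between the sexes 0 members were called higher in female controls and 1 lower (3.14% and 1.89% of all genes), which was Zfp937, with a log2 fold change of −1.06 ± 0.08 (adjusted p = 4.73e-14). This KRAB gene ranged from 7.64 to 10.9 CPM in the 6 female and from 17.5 to 21.9 in the 4 male Hoxb7 pulldowns, and from 2.02 to 4.71 and 4.80 to 10.3 in female and male total RNA. The sexes did not overlap within either kind of library. By adjusted p alone, 20 members were higher in females and 16 lower (13.8% and 16.5% of all genes).

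The response to each stimulus was measured in male pulldowns, with CPM scaled within these 22 libraries. Ischemia moved few members far. In Hoxb7 pulldowns after iAKI, 1 member was called higher and 0 lower, where 1.52% and 0.784% of all genes were. At an adjusted p under 0.05 of any size 16 members were higher and 1 lower (3.34% and 2.79% of all genes), and 137 of 173 members lay above 0 against 9932 of 21175 genes. Hoxb7 females went the other way in this respect, as given with the sexes. The median was 0.22 for the members, 0.30 for those with KRAB and 0 over all genes. The members' share of counts went from 0.536 to 0.631% in the 4 controls to 0.670 to 0.707% after iAKI.

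The member called was Zfp648, a C2H2 gene without KRAB box. It was at 8.64, 4.41, 1.94 and 4.25 CPM in the Hoxb7 controls and at 20.6, 15.8, 24.8 and 15.1 CPM after iAKI. Every injured library was above every control, with a log2 fold change of 1.98 ± 0.34 (adjusted p = 0.00206). In Hoxb7 females alone it was at −0.35 and did not pass (adjusted p = 0.543). Zfp809, a KRAB protein that silences endogenous retroviruses, rose by 0.58 ± 0.11 (adjusted p = 0.00325). Zfp568, a KRAB repressor of a placental Igf2 transcript, was at 54.7, 42.4, 57.8 and 47.7 CPM in controls and at 75.6, 80.4, 77.2 and 87.7 after iAKI, a rise of 0.66 ± 0.16 (adjusted p = 0.0168). Zfp644 rose by 0.58 ± 0.12 (adjusted p = 0.00579). The groups did not overlap for any of these, as was so for 15.8% of all genes tested. The single member that fell was Zfp706, from 187 to 208 CPM in controls to 126 to 149 after iAKI (−0.51 ± 0.13, adjusted p = 0.0223). Summed principal cell markers fell in the same libraries from a median of 3120 CPM (2740 to 3460) to 1170 (994 to 1240), and 2 of the 4 were called lower with none at 0. Their part in these results was not tested.

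In Atp6b1v1 pulldowns after iAKI, 1 member was called higher and 1 lower (1.14% and 1.68% of all genes), and 5 were higher and 9 lower by adjusted p alone (3.77% and 4.74%). Higher was the KRAB gene Zfp934, at 1.97, 1.42, 2.91 and 1.90 CPM in controls and 4.74, 4.83 and 3.09 after iAKI (1.04 ± 0.27, adjusted p = 0.0184). Leaving out iAKI replicate 1 or 4 or control replicate 9 or 11 put it at 0.96, 0.94, 0.90 and 1.00, and it was then not called. Lower was Zfp831, at 1.60, 1.69, 2.82 and 1.30 CPM in controls and 0.622, 0.947 and 0.680 after iAKI (−1.30 ± 0.36, adjusted p = 0.0256). Its call was lost without iAKI replicate 1 or 5 or control replicate 10, at −1.17, −1.22 and −1.03. Both members are expressed at few counts. Among abundant members Zfp871 fell, from 648 to 797 CPM in controls to 459 to 483 after iAKI (−0.60 ± 0.16, adjusted p = 0.0256). The median of summed proximal tubule markers also fell in these libraries, as given with the driver differences, and their part was not tested.

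After volume depletion members were called in both directions. In male Hoxb7 pulldowns after vAKI, 19 of 173 members (11%) were called higher and 20 (11.6%) lower, where 9.61% and 6.81% of all genes were called, so that the share called higher was near that of all genes. In Hoxb7 females edgeR's test called 0 members, with 19 at an unadjusted p under 0.05, and with both sexes in 1 fit it called 1. The male groups did not overlap for any of the 39, nor for 93.9% of all genes called, and 39.5% of all genes tested had no overlap. By adjusted p alone, 45 were higher and 42 lower (17.9% and 17.6% of all genes). Members with a KRAB box were called lower more often than higher (8 higher and 16 lower of 99, median −0.09), and those without the other way round (11 higher and 3 lower of 70, median 0.29). The same split by KRAB box in Zfp1 to Zfp499 gave 6 higher and 16 lower of 79 with KRAB and 6 and 6 of 81 without. In the thymine groups used above, lowest first, KRAB members had medians of 1.04, −0.60, 0.16, −0.21 and −0.30. Those without KRAB had 0.43, 0.37, 0.47, −0.39 and 0.09. Across members, Spearman's correlation with thymine content was −0.27 after vAKI and 0.40 after iAKI in Hoxb7 (−0.15 and 0.09 over all genes with a model). The parts of KRAB box and thymine content were not tested. Klf genes, another zinc finger family, rose in 10 of 17 cases with 0 lower, and immediate early genes in 12 of 12. Of the partners of KRAB proteins 0 were called higher and 1 lower (Fam208a, a subunit of the HUSH silencing complex, at −1.26), with Setdb1 at −0.86 and Trim28 at 0.09.

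Zfp869, a KRAB gene on chromosome 8, was at 65.2, 56.6, 77.8 and 72.3 CPM in the Hoxb7 controls and at 302, 215 and 284 after vAKI. The lowest vAKI library was above the highest control, and the log2 fold change was 1.97 ± 0.22 (adjusted p = 8.13e-07). After iAKI it was at 75.4 to 90.1 CPM and did not pass the test (0.33 ± 0.20, adjusted p = 0.392). Zfp648 was at 27.7, 24.4 and 17.5 CPM after vAKI (2.26 ± 0.36, adjusted p = 4.18e-05). Zfp941, also with KRAB, went from 3.41 to 8.44 CPM in controls to 22.1 to 23.3 (1.82 ± 0.27, adjusted p = 2.05e-05).

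Among members called higher without KRAB were several with known roles. Zfp516, a transcriptional activator of the brown fat program, was at 34.8, 26.8, 36.9 and 27.1 CPM in controls and 88.3, 105.7 and 90.8 after vAKI (1.60 ± 0.16, adjusted p = 3.34e-07). The brown fat genes Ucp1 and Cidea moved the other way in these libraries, from a summed median of 56.4 CPM (18.4 to 66.9) to 6.94 (3.10 to 15.0). Zfp521, a regulator of progenitor cells, went from 2.78 to 4.07 CPM to 6.76 to 10.1 (1.24 ± 0.28, adjusted p = 0.00143). Zfp622, a factor of 60S ribosome maturation, was at 22, 22.8, 41.3 and 37.4 CPM in controls and 68.7, 65.9 and 79.9 after vAKI (1.21 ± 0.24, adjusted p = 0.000343). Zfp703, an NLZ corepressor like Zfp503, was at 29.6, 24.7, 54.2 and 49.4 CPM in controls and 72, 91.1 and 88.0 after vAKI (1.08 ± 0.21, adjusted p = 0.000282). Both genes show 2 lower and 2 higher controls, and this split followed the runs of library numbers in the labels, which are given with the sexes. The lower controls, replicates 2 and 3, are in the run that holds every injured Hoxb7 library, and the higher ones are in another. Against the controls of that run alone, the male log2 fold changes were 1.7 for Zfp622 and 1.65 for Zfp703. Without control replicate 2 or 3, among all libraries, Zfp703 was at 0.97 and 0.91 and not called. Zfp819 was called higher as well, but all 4 controls had at most 3 counts of it, and no size is given.

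The members called lower were led by KRAB genes. Zfp931 was at 8.09, 7.61, 6.40 and 6.26 CPM in the Hoxb7 controls and at 1.72, 1.58 and 0.721 after vAKI (−2.41 ± 0.29, adjusted p = 1.92e-06). Zfp773 went from 1.60 to 2.75 CPM to 0.180 to 0.553 (−2.65 ± 0.45, adjusted p = 8.80e-05), and Zfp658 from 4.41 to 7.09 to 0.991 to 1.82 (−2.09 ± 0.30, adjusted p = 1.33e-05). None of these overlapped the controls. Zfp950, the most abundant of this group, was at 86.0, 96.6, 81.1 and 83.1 CPM in controls and 29.4, 20.4 and 22.7 after vAKI (−1.84 ± 0.19, adjusted p = 2.82e-07). Zfp932 fell by 1.66 ± 0.18 and Zfp935 by 1.31 ± 0.13. Among members without KRAB, Zfp704 went from 220, 161, 125 and 188 CPM in controls to 81.3, 82.5 and 64.4 (−1.19 ± 0.24, adjusted p = 0.000435).

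**Figure D3:**
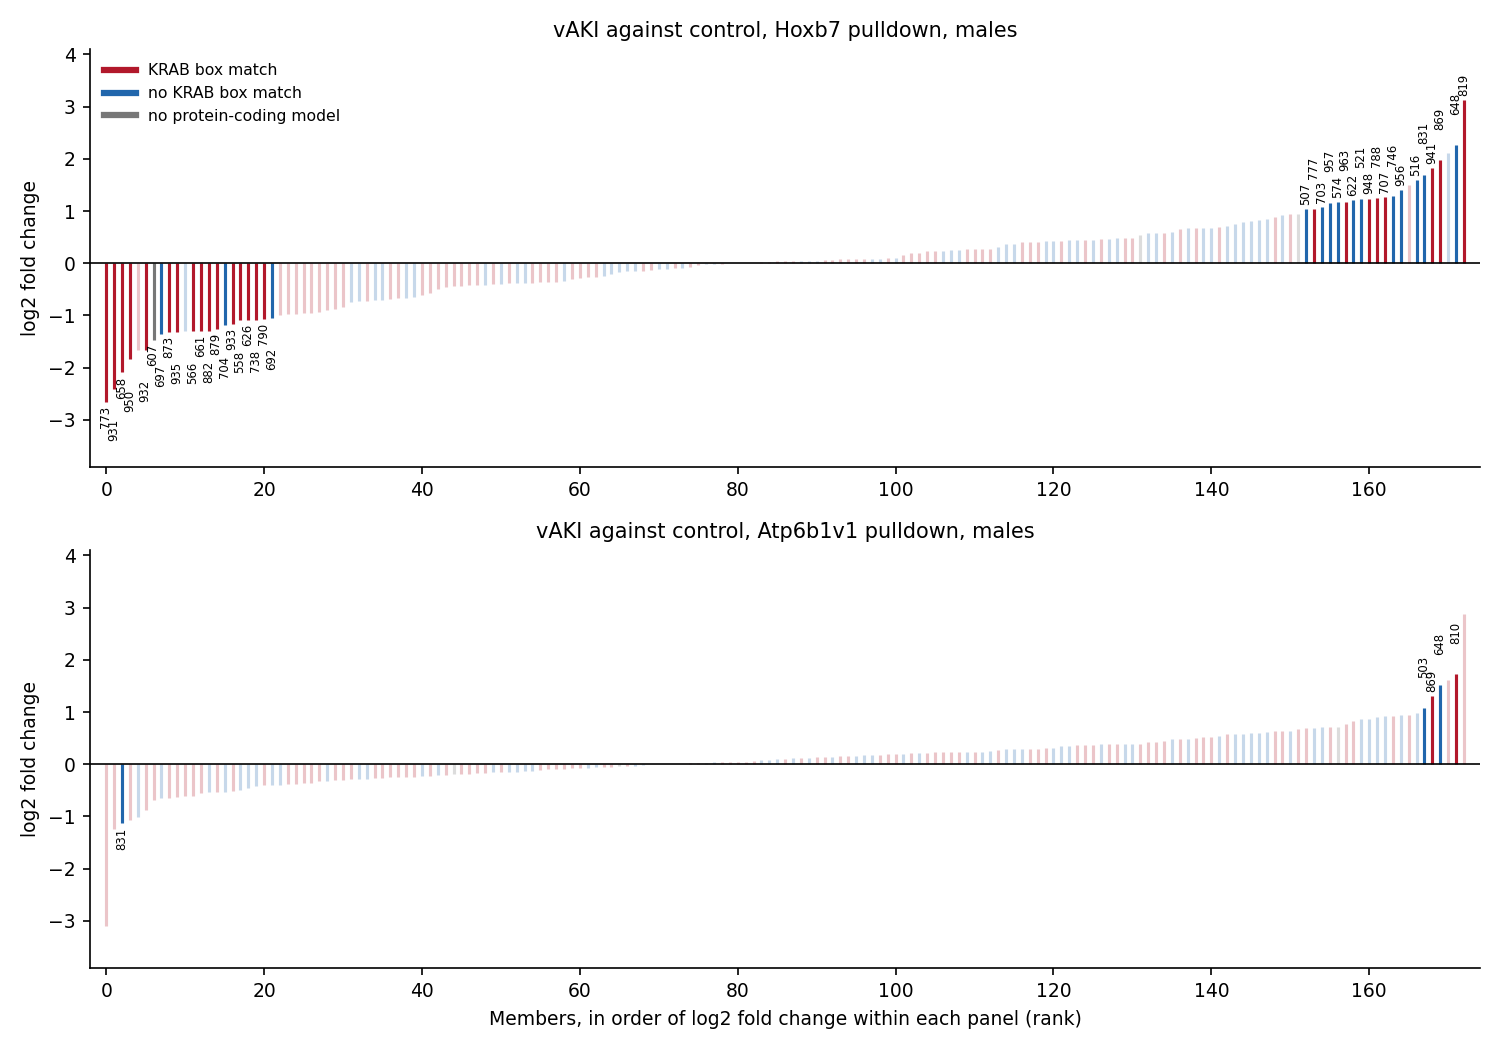
Log2 fold change after vAKI of the 173 tested members, ranked from lowest to highest, in Hoxb7 (top) and Atp6b1v1 (bottom) male pulldowns, coloured by KRAB box match, with members called in full colour and labelled by number. In Hoxb7 19 members were called higher and 20 lower, and in Atp6b1v1 4 and 1.

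Summed cell markers also moved between control and vAKI libraries of Hoxb7. Principal cell genes went from a median of 3120 CPM to 1190 (1130 to 1250), with 3 of 4 called lower. Of 5 intercalated cell genes 3 were called lower, as were both thick ascending limb genes (1990 to 867 CPM) and both brown fat genes (56.4 to 6.94 CPM). Of the 4 proximal tubule genes 0 were called. No marker was at 0, and the part of these shifts in the members' changes was not tested.

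The 8 members with the shared upstream block were looked at together after their values were seen, so no test applies to the group. After vAKI in Hoxb7 males 4 of them were called lower (Zfp931, Zfp932, Zfp935 and Zfp950), 6 were lower by adjusted p alone and 0 were called higher, with a median of −1.31 over the 7 with a mean of at least 10 counts. Zfp937 fell by 0.96 ± 0.16, from 20.3, 24.6, 21.4 and 19.8 CPM to 13.3, 10.2 and 9.73. Zfp808 fell by 0.87 (adjusted p = 0.0169). Zfp958, with 100 bases identical to Zfp932 the fewest of the 7, was at 12.2 to 16.8 CPM in controls and 15.7 to 20.1 after vAKI (0.28, adjusted p = 0.277), and Zfp936 had at most 2 counts in any library. After iAKI the median of the 7 was 0.14. In Hoxb7 females after vAKI none of the 8 passed the test, with Zfp931 at 0.03, Zfp932 at −0.19, Zfp935 at 0.30 and Zfp950 at 0.23, and all 4 were called for the difference between the sexes. The 8 depend on the choice of Zfp932 as reference. Grouping all pairs of member windows that aligned gave 12 KRAB members, adding Zfp781, Zfp873, Zfp938 and Zfp959, with scores of 25 to 38 against Zfp932. Of the 12, 8 lay below 0 after vAKI in Hoxb7 males. By adjusted p alone 7 were lower and 1 higher, and 5 were called lower and 0 higher.

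The block was not particular to these 8 genes. Of the 27024 other upstream windows in the table, 75 (0.278%) aligned to that of Zfp932 with a score of at least 50, and 68 of these belong to genes other than the members. Of the 68, 11 carry symbols from Zfp500 to Zfp999 that were not analysed here, and 4 carry other Zfp symbols. Among the 27 of the 68 that were tested, 21 lay below 0 after vAKI in Hoxb7 males, 10 were called lower and 0 higher, and the median was −0.98, where 6.81% of all genes were called lower. With a mean of at least 10 counts there were 21, of which 9 were called lower. In Atp6b1v1 the median of the 27 was −0.14. Genes of near-identical sequence share reads that the counting step discards, so counts of such copies are uncertain.

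**Figure D4:**
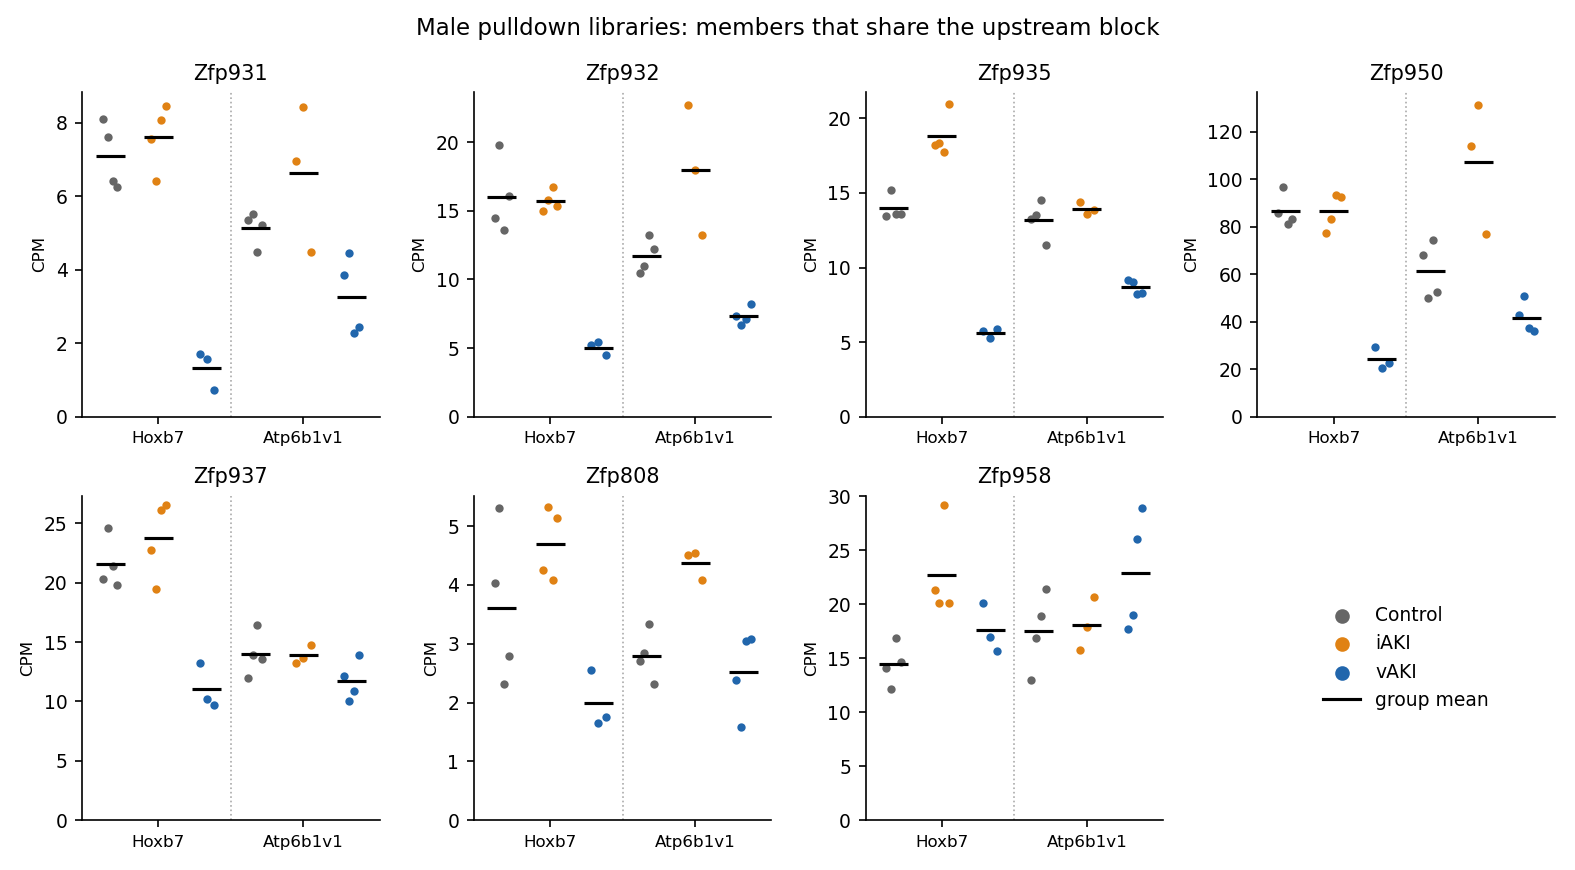
Normalised level (CPM, linear axes from 0) of members with the shared upstream block in each male pulldown of control, iAKI and vAKI mice of both drivers, with a point for each library and a line for the group's mean. In Hoxb7 Zfp931, Zfp932, Zfp935, Zfp937 and Zfp950 lay below every control in each vAKI library, and Zfp958 did not.

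In male Atp6b1v1 pulldowns after vAKI, 4 members were called higher and 1 lower (3.45% and 1.7% of all genes). By adjusted p alone 28 were higher and 9 lower (8.11% and 6.47%). In females of this driver 18 were called higher and 6 lower (7.65% and 4.18% of all genes). Of those called in males, the KRAB gene Zfp810 had the largest rise (1.72 ± 0.15, adjusted p = 3.85e-07). It went from 41.5, 40.6, 50.6 and 51.9 CPM in controls to 187, 99.3, 153 and 172. In Hoxb7 pulldowns the same gene was at 40.6 to 45.1 CPM in controls and 45.3 to 53.4 after vAKI. Zfp503 was at 96.8 to 134 CPM in the Atp6b1v1 controls and 224, 170, 285 and 258 after vAKI (1.07 ± 0.15, adjusted p = 7.20e-05), and it was at 0.96 and not called without vAKI replicate 6.

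Zfp648 and Zfp869 were the members called higher after vAKI in both drivers, whose libraries are separate. In Atp6b1v1, Zfp869 was at 45.5, 80.8, 70.6 and 104.97 CPM in controls and 126, 150, 234 and 233 after vAKI (1.30 ± 0.21, adjusted p = 0.000342). Zfp648 went from 3.84 to 7.82 CPM to 13.3 to 22.4 (1.52 ± 0.33, adjusted p = 0.0041). Neither overlapped its controls. By adjusted p alone 23 members were higher in both drivers, which is 23 of 45 in Hoxb7 and of 28 in Atp6b1v1. Over all genes tested 35.2% of those higher in Hoxb7 and 77.8% of those higher in Atp6b1v1 were higher in both. The 23 include Zfp503, Zfp703, Zfp516, Zfp521, Zfp568 and Zfp622. Lower in both were 6 (Zfp651, Zfp704, Zfp759, Zfp932, Zfp935 and Zfp950), of 42 and 9, where the shares over all genes were 25.6% and 69.5%. Called lower in Atp6b1v1 was Zfp831, at 0.896, 0.883, 1.06 and 0.512 CPM after vAKI (−1.13 ± 0.33, adjusted p = 0.0221), which was not called without vAKI replicate 7 (−0.98) or control replicate 10 (−0.85). In Atp6b1v1 3 of the 8 members with the shared block were lower by adjusted p alone and 0 were called, with a median of −0.55 over the 7 with a mean of at least 10 counts.

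The vAKI libraries of Atp6b1v1 were uneven, and the split followed the runs of library numbers in the labels, which are given with the sexes. Male replicates 1 and 2 are in 1 run and 6 and 7 in another, and the male controls are divided between the same runs. The part of the runs in the values that follow was not tested. Replicates 6 and 7 stood apart from 1 and 2 in several members, with Zfp704 at 182, 171, 81 and 82 CPM in replicates 1, 2, 6 and 7, Zfp658 at 7.79, 4.97, 2.62 and 3.65, and Zfp521 at 4.01, 4.52, 8.93 and 9.41. The count of members called was 13 without replicate 1 and 8 without replicate 2, and 14 without control replicate 11, against 5 with all libraries. Of the intercalated cell markers 2 of 5 were called lower in these libraries and 0 of 4 principal cell markers in either direction, and of the proximal tubule markers, which ranged from 841 to 3450 CPM in sum, 1 of 4 was called lower. Of 3 lymphocyte genes 1 was called lower (median −0.95), and of 4 macrophage genes 0 were called (median −0.56). The part of these in the members' values was not tested.

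Set directly against each other, the stimuli separated many members in males. With both sexes or in females alone fewer members were called in Hoxb7, and in Atp6b1v1 females more were, as given with the processing. The counts that follow are of males. In Hoxb7, 13 were called higher after vAKI than after iAKI and 29 lower (8.15% and 6.55% of all genes), 24 of the latter with KRAB. In Atp6b1v1 21 were called higher and 7 lower (7.16% and 4.39%). In both drivers 10 were called higher after vAKI (Zfp516, Zfp574, Zfp622, Zfp703, Zfp707, Zfp746, Zfp869, Zfp941, Zfp956 and Zfp957) and 6 lower (Zfp583, Zfp692, Zfp773, Zfp931, Zfp932 and Zfp950). The 10 are 76.9% of those called higher in Hoxb7 and 47.6% in Atp6b1v1, where the shares over all genes were 46.2% and 52.6%. The 6 are 20.7% and 85.7% of those called lower, where the shares were 31.8% and 47.4%. Zfp957 had log2 fold changes of 1.83 and 1.75 in Hoxb7 and Atp6b1v1, Zfp869 of 1.65 and 1.68, Zfp950 of −1.84 and −1.36 and Zfp773 of −2.58 and −1.58.

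Whether the drivers differed in a response was tested by an interaction term, the log2 fold change in Atp6b1v1 minus that in Hoxb7. For iAKI 0 members were called higher and 4 lower (1.6% and 1.88% of all genes), and 1 and 15 by adjusted p alone (3.67% and 4.11%). With the run of library numbers as a factor more members were called, as given with the processing. Zfp507 was at 71.1, 93.5, 72.2 and 100.9 CPM in Atp6b1v1 controls and 44.3, 45.3 and 67.2 after iAKI. In Hoxb7 it went the other way, from 76.4, 58.4, 82.2 and 80.8 CPM to 101.9, 95.8, 113 and 114, a difference of −1.20 ± 0.22 (adjusted p = 0.00398). Zfp568 was at 41.6, 68, 43.2 and 62.0 CPM in Atp6b1v1 controls and 29.3, 33.1 and 47.5 after iAKI, which overlapped, and the difference was −1.22 ± 0.24 (adjusted p = 0.00582). Zfp644 differed by −1.02 ± 0.17 (adjusted p = 0.00323) and the splicing factor gene Zfp830 by −1.08 ± 0.27 (adjusted p = 0.0169). Zfp644 was not called without iAKI Hoxb7 replicate 5 or 7, iAKI Atp6b1v1 replicate 1, control Hoxb7 replicate 3 or control Atp6b1v1 replicate 9 or 11 (−0.90 to −1), nor under another filter on low counts (−0.98 and −0.99). Zfp830 was not called without iAKI Atp6b1v1 replicate 1, control Hoxb7 replicate 2 or 3 or control Atp6b1v1 replicate 11 (−0.92 to −0.99). In females alone 0 members were called, with Zfp507 and Zfp830 at 0, Zfp568 at 0.43 and Zfp644 at −0.28, and with both sexes 0 were called. The count of 4 became 12 without iAKI Atp6b1v1 replicate 5, 7 without control Atp6b1v1 replicate 6, and 2 without control Hoxb7 replicate 3 or control Atp6b1v1 replicate 11. Proximal tubule markers went from a median of 2050 to 928 CPM after iAKI in Atp6b1v1 and from 2150 to 2270 in Hoxb7, and their part was not tested.

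For vAKI 6 members were called higher and 1 lower in the same difference (1.34% and 1.6% of all genes), and 12 and 1 by adjusted p alone (2.04% and 2.16%). Here too the count called rose with the run of library numbers as a factor, as given with the processing. Zfp810 differed by 1.52 ± 0.22 (adjusted p = 0.00069), Zfp950 by 1.29 ± 0.24 (adjusted p = 0.00363), Zfp931 by 1.77 ± 0.37 (adjusted p = 0.00847) and Zfp658 by 1.79 ± 0.39 (adjusted p = 0.00974). In males the fall of Zfp931 in Hoxb7 was thus the deeper. In females alone the differences were −0.72 for Zfp950, −1.04 for Zfp931, −1.69 for Zfp658 and 1.30 for Zfp810, and none passed the test. With both sexes 0 members were called for the difference, and Zfp931 was at 0.04. In Atp6b1v1 males Zfp931 was at 5.35, 5.53, 4.48 and 5.21 CPM in controls and 3.86, 4.45, 2.27 and 2.43 after vAKI. Zfp879 and Zfp607 differed by 1.34 ± 0.31 and 1.29 ± 0.36 (adjusted p = 0.0153 and 0.0433), and Zfp879 lost the call without vAKI Hoxb7 replicate 6 or 7 (1.26 and 1.31). Zfp607 lost it without those, vAKI Atp6b1v1 replicate 1 or 2, control Hoxb7 replicate 2 or 5 or control Atp6b1v1 replicate 6, 9 or 11 (1.02 to 1.36). Zfp831 differed by −2.83 ± 0.54 (adjusted p = 0.00429), at 0.105 to 0.269 CPM in Hoxb7 controls and 0.443, 0.868 and 0.676 after vAKI, and in females alone it was at 1.12 (adjusted p = 0.612).

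The responses above are of males. In pulldowns of 5.5 months from both sexes, scaled together, the male response in Hoxb7 differed from the female one for 38 members after iAKI (35 higher and 3 lower in males, 4.77% and 2.22% of all genes) and for 34 after vAKI (13 higher and 21 lower, 5.48% and 5.35%). In Atp6b1v1 0 members were called after either stimulus by edgeR's test, where 0% of genes were called higher and 0% lower, and 1 (iAKI) and 14 (vAKI) of the 173 members had an unadjusted p under 0.05, as did 3.19% and 8.29% of all genes. Zfp950 had a log2 fold change after vAKI of −1.84 ± 0.28 in Hoxb7 males and 0.23 ± 0.25 in females, with a difference of −2.08 ± 0.37 (adjusted p = 0.00148). Zfp935 had −1.31 in males and 0.30 in females (adjusted p of the difference = 0.000546), and Zfp516 1.60 and 0.20 (adjusted p = 0.00226). Zfp648 had 2.27 and 1.09, a difference that did not pass (adjusted p = 0.0848).

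Over all Hoxb7 females of 5.5 months (4 vAKI against 4 controls), edgeR's test called 0 members after vAKI and 0.194% of all genes, with 19 of the 173 members and 10.5% of all genes at an unadjusted p under 0.05. Of the 39 members called in males 21 had the same sign in females, and 28 were called for the difference between the sexes. After iAKI the median of the members was 0.21 in Hoxb7 males and −0.37 in females (3 against 4), where 131 members lay below 0, 4 were called higher and 17 lower (1.52% and 4.18% of all genes). Fitted without the males, the same females gave 12 calls. Atp6b1v1 females had 18 members called higher and 6 lower after vAKI (7.65% and 4.18%). With the sexes in 1 fit and sex as a covariate, 1 member was called after vAKI in Hoxb7 and 14 in Atp6b1v1.

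Within 1 run of library numbers, which holds a single Hoxb7 female control of that age, the difference between the sexes in Hoxb7 kept its sign in nearly all of the members called for it and passed the test for none. Library numbers in the labels fall into runs of 1 to 40, 65 to 85 and from 98 on, and every injured Hoxb7 pulldown is in the 1 to 40 run, with 2 of the male controls and 1 of the female controls of 5.5 months. The labels do not say what the runs are. For Zfp950 the female control in that run was at 80.4 CPM and the other 3 at 37, 52.6 and 61.0, while the females after vAKI were at 117, 43.9, 73.2 and 37.6. Zfp869 was at 66.5 CPM in that control and 166, 163 and 134 in the others, and at 76.1, 132, 74.3 and 304 after vAKI. Within the 1 to 40 run, Atp6b1v1 males (2 against 2) had 2 members called after vAKI, both among the 5 called over all libraries (0.439% of all genes). After iAKI they had 2 called, including 1 of the 2 called over all libraries (2.47% of all genes). Atp6b1v1 females (2 against 2) had 28 called after vAKI and 13 after iAKI, where 10.8% and 5.27% of all genes were called. Over all libraries they had 24 and 3, where 11.8% and 2.59% of all genes were called. In Hoxb7 males of that run (3 against 2), 47 members were called after vAKI, including 36 of the 39, where 17.8% of all genes were called. In females of that run (4 against 1, the lone control being assumed to vary like the other groups), edgeR's test called 0 members and 0.104% of genes, with 20 of the 173 members and 11.4% of genes at an unadjusted p under 0.05, and 37 of the 39 had the male sign against this 1 control, where 21 had it against all 4. After iAKI the females of the run (3 against 1) gave 0 members called and 0.151% of genes, with 16 members and 10.1% of genes at an unadjusted p under 0.05. The test of the difference between the sexes called 0 members within the run after either stimulus (edgeR), with 51 (iAKI) and 34 (vAKI) of the 173 members at an unadjusted p under 0.05, where 11.8% and 12% of all genes were.

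Of the members called for the difference over all libraries, 37 of 38 after iAKI and 34 of 34 after vAKI had the same sign within the run, with median sizes of 0.99 (1.27 over all libraries) and 1.00 (1.41) on the log2 scale. The injured libraries are the same in both fits, and the controls of the run are among those of the other fit. The members were also chosen by their difference over all libraries, so like signs within the run were largely set in advance. After vAKI the difference within the run was −1.65 ± 0.49 for Zfp950 (adjusted p = 0.228), −1.39 ± 0.38 for Zfp935 (adjusted p = 0.217) and 1.16 ± 0.36 for Zfp516 (adjusted p = 0.254). After iAKI the median difference over all members was 0.49, with 0.32 in males and −0.20 in females.

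**Figure D5:**
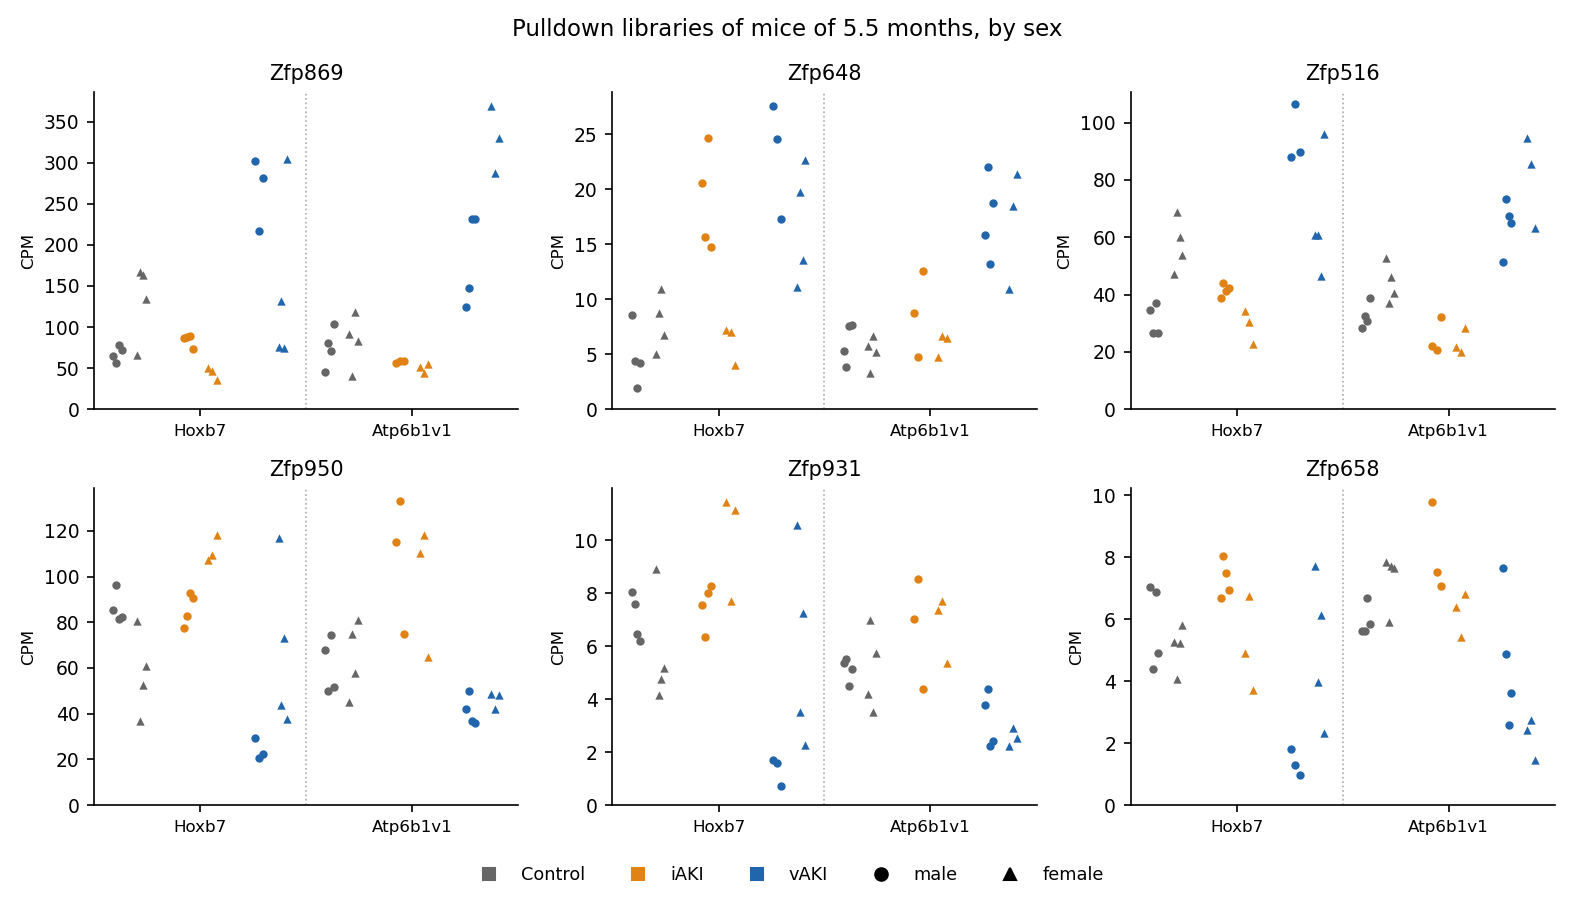
Normalised level (CPM, linear axes from 0) of selected members in pulldowns of mice of 5.5 months, by driver, stimulus and sex, with a point for each library. The Hoxb7 female control of the 1 to 40 run had Zfp950 at 80.4 CPM and the other 3 female controls at 37 to 61.0.

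Members that lie next to each other on a chromosome formed 10 runs of at least 4 genes. In 6 of these, all made up of KRAB genes, every member was higher in labelled than in total RNA of Hoxb7 by adjusted p alone, as were 75.7% of all members. After vAKI in Hoxb7 each of the 10 runs held members on both sides of 0. The 4 runs given here were chosen after their values were seen. On chromosome 13, from 67038596 to 67687071, 7 KRAB genes (Zfp712, Zfp708, Zfp759, Zfp595, Zfp953, Zfp748 and Zfp738) had a median of 1.09 in labelled against total RNA of Hoxb7 with 5 called higher, of 0.41 after iAKI with none past an adjusted p of 0.05, and of −0.72 after vAKI, where values ran from −1.08 to 0.41, 5 were lower by adjusted p alone and 1 was called. On chromosome 17, from 21383748 to 22456689, all 10 KRAB genes of a run were higher in labelled RNA by adjusted p alone, with a median of 0.87, and the run's values after vAKI ran from −0.68 to 1.24 with a median of 0.07. On chromosome 6, from 47819266 to 48086593, Zfp956, Zfp777 and Zfp746 were called higher after vAKI in Hoxb7, with a median of 1.04 over 5 genes that include Zfp786 and Zfp783 and a range from −0.09 to 1.40. On chromosome 7, from 4915217 to 5053723, a run of 6 genes without KRAB (Zfp628, Zfp579, Zfp524, Zfp865, Zfp784 and Zfp580) went both ways in labelled against total RNA of Hoxb7, from −1.11 to 0.50 with a median of −0.32, and 2 were higher and 3 lower by adjusted p alone. The runs were formed from members at most 200 kb apart, and reads shared by close copies may be missing from these counts.

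Of the 173 members tested, 77 were called in none of the comparisons made among control libraries or among males. At an adjusted p under 0.05 of any size 8 were in none of them (Zfp534, Zfp553, Zfp572, Zfp575, Zfp616, Zfp663, Zfp764 and Zfp936), of which Zfp572, Zfp616, Zfp663 and Zfp936 had at most 3 counts in each Hoxb7 control pulldown.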

How the data were processed

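The authors deposited counts of reads per gene, not normalised, for 69 kidney RNA libraries. Poly(A) RNA libraries were base called with CASAVA 1.8.2, trimmed with Trimmomatic 0.36, aligned to mm10 with STAR 2.5.3a and counted with HTSeq 0.6.1p2 (versions from the submitters' processing notes). HTSeq leaves out reads that align to several places, so close copies lose counts. It was run at its defaults, under which reads are counted by strand. The annotation is not given in the sources used here. The unused sample columns numbered 0.

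Counts were normalised with TMM and tested with edgeR 4.0.16 (quasi-likelihood test, R 4.3.3) after removing genes with fewer than 2 counts over all libraries. Control libraries were fitted with group and sex (42 libraries, 38 residual degrees of freedom) and male pulldowns of 5.5 months by group (22 libraries, 16 residual degrees of freedom). Values after ± are standard errors. P-values were adjusted over all 21175 genes tested by the Benjamini-Hochberg method, and a gene was called when its adjusted p was under 0.05 and its log2 change was 1 or more in either direction. CPM are scaled within each fit, so levels are comparable only within a fit. The scripts were tested on simulated data.

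Members and lists were chosen with earlier results of these data known. Members named were up to 5 of the highest and 5 of the lowest called with a mean of at least 10 counts in each comparison, those called for a stimulus in both drivers or in a driver difference, the 3 most abundant in control pulldowns, and those with a known role. Other members named, the members given library by library, the shared upstream block, the runs of neighbours, the sex difference test and the fit within library numbers 1 to 40 were chosen after values were seen. KRAB boxes, fingers, thymine content and length come from GENCODE M21 models and upstream windows from RefSeq (GRCm38.p6). The study counts its male pulldowns as mice. For its comparisons of control pulldown with total RNA it gives 21 mice, while 42 control libraries were fitted here. The sources used here do not say which of these libraries share a mouse. Nor do they say whether each injured female library is a separate mouse, and p-values then measure the spread between samples. DESeq2 1.42.0, its size factors, other filters, other sets of samples, a replicate block and leaving out each library were tried.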

Additional observations from a re-analysis of the deposited data

Results flagged for a closer look

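In 140 sets of 1 member and 1 group of libraries, 6 held a library far from the others, where chance gives about 1 set in 20. Zfp568 was at 151 CPM in the female vAKI Hoxb7 pulldown 5 and at 69.4 to 71.1 in the other females of that group. Zfp706 was at 142 CPM in the male vAKI Atp6b1v1 pulldown 2 and at 199 to 211 in the others. Zfp831 was at 1.23 CPM in the female control Hoxb7 pulldown 6 against 0.178 to 0.253, and Zfp937 at 12.2 in the female control Hoxb7 pulldown 1 against 8.98 to 9.46. Zfp935 was at 15.2 CPM in the male control Hoxb7 pulldown 3 against 13.4 to 13.6, and Zfp658 at 5.91 in the female control Atp6b1v1 pulldown 8 against 7.67 to 7.84.

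In males the drivers differed in their response, by the test of the difference (Atp6b1v1 minus Hoxb7, log2 scale), for 11 members, and in females alone or with both sexes for 0. After iAKI these were Zfp507 at −1.20, Zfp568 at −1.22, Zfp644 at −1.02 and Zfp830 at −1.08. After vAKI they were Zfp658 at 1.79, Zfp931 at 1.77, Zfp810 at 1.52, Zfp879 at 1.34, Zfp607 at 1.29, Zfp950 at 1.29 and Zfp831 at −2.83. The sexes differed in Hoxb7 for 38 members after iAKI (35 higher in males and 3 lower, 4.77% and 2.22% of all genes) and 34 after vAKI (13 and 21, 5.48% and 5.35%). A fit within 1 run of library numbers reuses libraries of this fit, so it is not a separate test of the signs of these members. Within the libraries numbered 1 to 40, which hold 1 Hoxb7 female control of 5.5 months, 37 and 34 of these had the same sign, with median sizes of 0.99 and 1.00 against 1.27 and 1.41, and the test called 0 members after either (0% and 0.0236% of all genes), with 51 and 34 at an unadjusted p under 0.05 (11.8% and 12% of all genes).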

How the results depend on the processing

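DESeq2, its size factors in edgeR, edgeR's own filter and no filter kept every count of members called within 1.5 times its value, and of 86 called results of single members DESeq2 changed 0. By adjusted p alone the counts were 147 and 143 for Hoxb7 and Atp6b1v1 labelled against total RNA, 6 between drivers, 36 between sexes, 17 and 87 for iAKI and vAKI in Hoxb7, 14 and 37 in Atp6b1v1, 89 and 80 for vAKI against iAKI, and 16 and 13 for the driver differences.

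Control pulldown and total libraries of the same replicate number were often of different drivers, and pairs by driver, sex and age were not tried. Samples with the same replicate number correlated little (mean correlation of 0.0325 and 0.0689 between pulldown and total libraries), which says nothing about 2 libraries of 1 mouse. With that number as a block, 2 members were called between sexes, 2 and 24 for iAKI and vAKI in Hoxb7, 0 and 27 in Atp6b1v1, and 0 and 1 for the driver differences. With the run of library numbers as a factor, 2 were called for iAKI in Hoxb7, and 10 and 12 for the driver differences. With mice of 5.5 months only, 4 were called between sexes.

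With both sexes, 1 member was called for vAKI in Hoxb7, 14 for vAKI in Atp6b1v1, 18 for vAKI against iAKI in Hoxb7 and 0 for each driver difference. In females alone the counts were 12 and 0 for iAKI and vAKI in Hoxb7, 1 and 23 in Atp6b1v1, 9 and 54 for vAKI against iAKI, and 0 and 0 for the driver differences. Among the members chosen by the naming rule, signs turned there for Zfp648 after iAKI in Hoxb7 (−0.35), and after vAKI in Hoxb7 for Zfp703 (−0.37), Zfp831 (−0.77), Zfp931 (0.04), Zfp950 (0.24) and Zfp956 (−0.47), and in Atp6b1v1 for Zfp831 (0.35). The driver difference of iAKI became 0 for Zfp507 and Zfp830 and 0.43 for Zfp568, and that of vAKI −0.22 for Zfp607, −1.69 for Zfp658, 1.12 for Zfp831, −1.04 for Zfp931 and −0.72 for Zfp950, with Zfp658 at −0.20 in both sexes. The cause was not tested.

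Leaving out 1 library gave 1 to 1 calls for iAKI and 35 to 45 for vAKI in Hoxb7, 0 to 3 and 4 to 14 in Atp6b1v1, 38 to 42 and 20 to 34 for vAKI against iAKI, and 2 to 12 and 5 to 10 for the driver differences. For members with few counts, such as Zfp831, differences are limited by depth.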
